A study of Mus musculus with 12 samples.

Results

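The 10 genes described here were listed as amino acid transporters of the early mouse embryo: Slc1a1, Slc1a4, Slc1a5, Slc3a2, Slc6a9, Slc7a5, Slc7a6, Slc7a7, Slc38a1 and Slc38a2. The list is not complete, and other amino acid transporters are described further below. They were found by their gene symbols in the annotation of the array and are 10 of 18163 genes, with 21 of 44937 probe sets. The probe set that stands for a gene was selected on its measured level, as the one with the highest mean log2 value over all 12 arrays, and the other probe sets of the gene serve as a check. That choice used the level of a probe set but not the group of an array. The genes were listed at a time when the decrease of Slc1a1 in both knockdowns was already known.

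The study measured gene expression after knockdown of a maternal or embryonic transcript with morpholino oligonucleotides (MO), which block translation, in embryos cultured to the mid-2-cell stage. The 4 groups, with 3 arrays each, were Oct4-MO embryos with uninjected embryos of the same experiment, and Ccna2-MO embryos with uninjected embryos of theirs. Oct4 is a transcription factor of pluripotent cells and Ccna2 encodes cyclin A2. All embryos were wild type, from superovulated F1 (C57BL6xDBA/2) females aged 3 to 5 weeks mated with wild type males, and were recovered with 2 pronuclei 17 h after hCG as a pool from 3 to 6 females. MO were injected into the cytoplasm at 0.6 mM according to the labels, although the methods of the paper give a higher dose for Ccna2-MO. An array shows 1 pool of 20 embryos, and RNA equal to that of 10 embryos went through 2 rounds of amplification. For every injected pool, embryos of the same collection were kept beside it in culture without any injection. Injection itself and loss of the targeted protein therefore cannot be told apart within a comparison, and no array of a mismatch MO was analysed here. Within a pool of whole embryos, fewer transcribing embryos and less RNA per embryo cannot be told apart either. The paper uses the Ccna2-MO arrays as its control for injection, for oligonucleotides in the cytoplasm and for transcripts bound by MO.

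Levels are given as linear intensities, as they stand after the authors' dChip normalization. Array medians lay at 22.7 to 25.47, and 39.3 to 42.7% of the probe sets on an array were under 16. Of markers of the egg and early embryo, 10 of 11 were measured, all of them above 40 on at least 1 array, with summed levels of 14800 to 16800 in Oct4-MO embryos and 15100 to 15700 in their uninjected embryos, and of 16400 to 19100 in Ccna2-MO embryos and 17000 to 18100 in theirs. These sums rest on the brightest markers, and single markers differed: Zar1 was at 303 ± 5.92 in Oct4-MO embryos, against 73.6 ± 20.2 in the uninjected pools beside them (log2 fold change 1.85, adjusted p = 0.123 from limma), and at 392 ± 180 in Ccna2-MO embryos and 71.5 ± 34.5 in theirs (2.19, adjusted p = 0.0328, passed; SD, n = 3 each). Its groups did not overlap in either experiment. At an unadjusted p under 0.05, 3 of the 10 were higher and 1 lower in Oct4-MO embryos, and 2 were higher and 1 lower in Ccna2-MO embryos, with Gdf9 among the higher ones in both. Of all genes, 4.66% were higher and 5.96% lower in Oct4-MO embryos, and 8.22% and 8.5% in Ccna2-MO embryos. Of the 12 measured markers of cumulus and granulosa cells, 6 were not above 40 on any array, among them Ptx3, Has2 and Tnfaip6. The same held for the 3 blood markers measured. Of the 12, 1 was higher and 0 lower in Oct4-MO embryos at an unadjusted p under 0.05. In Ccna2-MO embryos 1 was higher and 1, Foxl2, was lower. Groups did not overlap for 3 higher and 2 lower markers in Oct4-MO embryos, and for 1 and 1 in Ccna2-MO embryos. Amhr2 reached 989 and had a lower mean in both knockdowns, without passing. It was at 305 ± 151 in Oct4-MO embryos, against 419 ± 62.5 in their uninjected embryos. In Ccna2-MO embryos it was at 573 ± 402, against 707 ± 239 in theirs (SD, n = 3 each). Cyp11a1 was at 331 ± 97.9 in Oct4-MO embryos, against 131 ± 41.3 in the uninjected pools beside them (log2 fold change 1.24, unadjusted p = 0.038, adjusted p = 0.505 from limma), and at 216 ± 35 in Ccna2-MO embryos and 82.0 ± 86.3 in theirs (1.65, unadjusted p = 0.00902, adjusted p = 0.178; SD, n = 3 each), with no overlap in either experiment. With the mean of its probe sets, the log2 fold change of Cyp11a1 in Oct4-MO embryos was 0.32 (adjusted p = 0.676 from limma). In Ccna2-MO embryos it was 0.59 under the alternative processing that lowered it most. The part of the Cyp11a1 difference in the levels of the transporters was not tested. The summed cumulus list ran from 618 to 1060 in Oct4-MO embryos and from 648 to 746 in their uninjected embryos, and from 612 to 1410 in Ccna2-MO embryos and from 711 to 1150 in theirs.

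Amino acids reach the cytoplasm of an egg or embryo through several transport systems that overlap in what they carry. The Slc1 family includes the sodium-dependent carriers of glutamate and aspartate and the exchangers of small neutral amino acids. Slc3a2 is the heavy chain that carries light chains of the Slc7 family to the cell surface, where they exchange large neutral or cationic amino acids. Slc6a9 is the glycine transporter GLYT1, and in the cleavage-stage mouse embryo glycine serves as an organic osmolyte that sets cell volume as well as a metabolite. Slc38a1 and Slc38a2 take up small neutral amino acids with sodium.

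Slc1a1, Slc1a4, Slc1a5, Slc3a2, Slc6a9, Slc7a5 and Slc38a2 had a mean log2 value among the upper 22468 probe sets, which makes 7 of 10 transporters. On the same choice of the brightest probe set, this held for 11417 of all 18163 genes. Slc7a6, Slc7a7 and Slc38a1 did not and were close to the dim end of the array. Injected and uninjected embryos of an experiment were compared by limma on log2(value + 16), over all 44937 probe sets and with a Benjamini-Hochberg threshold of 0.05. Fold changes are on that scale, on which dim probe sets appear to change less than they do. In Oct4-MO embryos 1 transporter, Slc1a1, passed as lower and 0 as higher, where 0.0936% of all genes passed in either direction and 0.0661% as lower. In Ccna2-MO embryos Slc1a1 and Slc1a4 passed as lower and 0 as higher, where 0.93% of all genes passed in either direction and 0.468% as lower. At an unadjusted p under 0.05, 1 transporter was higher and 3 were lower in Oct4-MO embryos, against 4.66% of all genes higher and 5.96% lower. In Ccna2-MO embryos 0 were higher and 3 lower, against 8.22% of all genes higher and 8.5% lower. The injected and uninjected arrays did not overlap for 4 transporters in Oct4-MO embryos, against 18.8% of all genes, and for 3 in Ccna2-MO embryos, against 19.2%. The median log2 fold change of the 10 transporters was -0.01 in Oct4-MO embryos and -0.21 in Ccna2-MO embryos, beside 0.01 and 0.03 for all genes. In Oct4-MO embryos the log2 fold changes farthest from 0 were those of Slc1a1, Slc1a5, Slc6a9 and Slc7a5, and in Ccna2-MO embryos those of Slc1a4, Slc1a1 and Slc1a5.

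**Figure D1:**
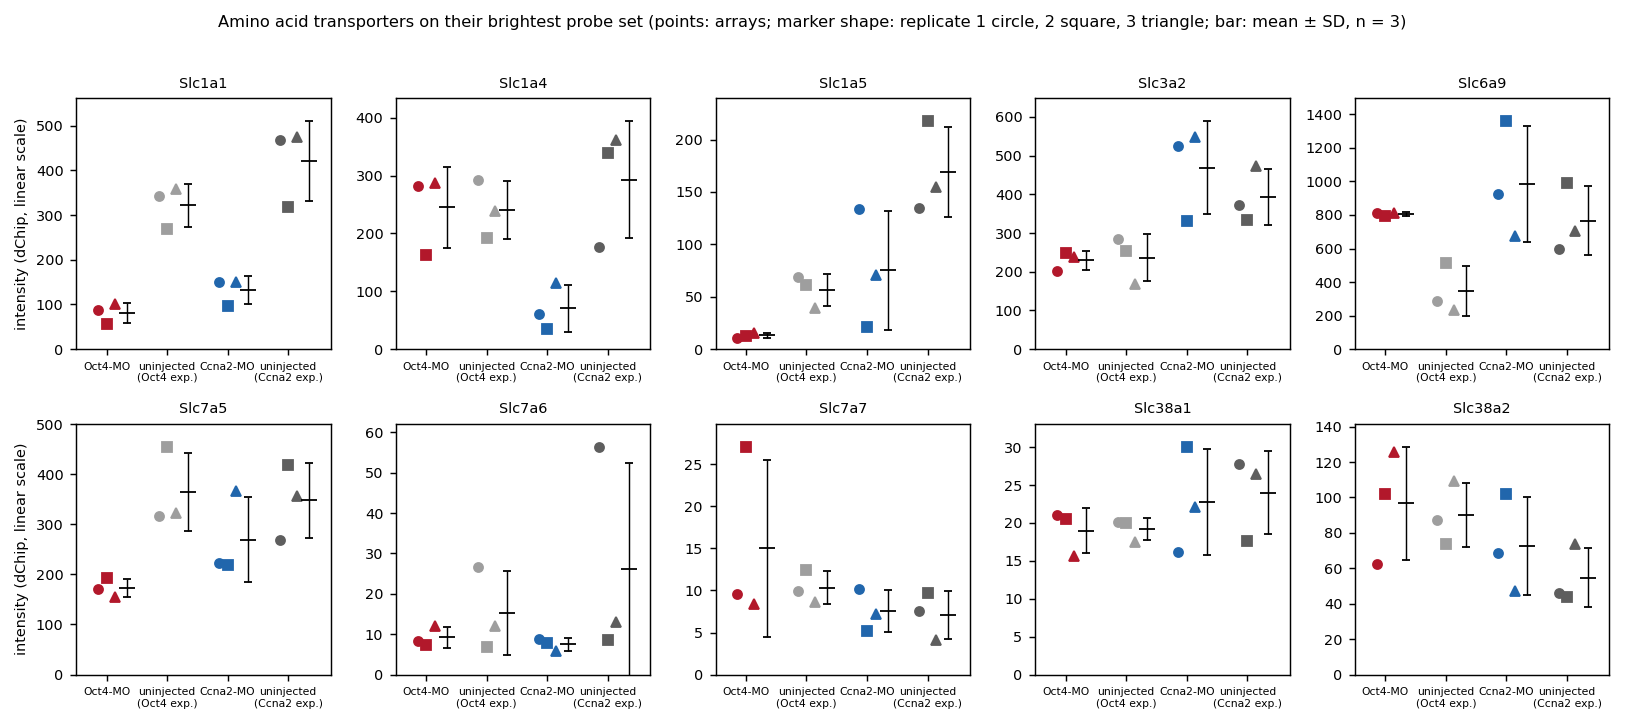
Intensity (dChip, linear scale, each axis from 0) of the brightest probe set of each transporter on every array, with Oct4-MO, its uninjected embryos, Ccna2-MO and its uninjected embryos from left to right; points are arrays, the marker shape gives the replicate, and the bar is the mean ± SD (n = 3). Slc1a1 lies at 56.9 to 151 on the 6 injected arrays and at 268 to 475 on the 6 uninjected arrays.

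Slc1a1, the glutamate, aspartate and cysteine carrier EAAT3, was lower in both knockdowns. On its brightest probe set, 1425415_a_at, its values were 86.8, 56.9 and 100.4 in the Oct4-MO pools and 342, 268 and 358 in their uninjected pools. In the Ccna2-MO pools they were 149, 96.5 and 151, and in their uninjected pools 469, 318 and 475. Every injected array lay below every uninjected array of either experiment. Replicate 2 was the lowest of each of the 4 groups, so that the ratio of an injected pool to the uninjected pool of its own collection varied little. It was 0.254, 0.212 and 0.281 for Oct4-MO, and 0.319, 0.303 and 0.318 for Ccna2-MO.

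Slc1a1 averaged 81.4 ± 22.2 in Oct4-MO embryos, against 322 ± 47.9 in their uninjected embryos (SD, n = 3 each). The log2 fold change from limma was -1.81, with a standard error of 0.28 and an adjusted p of 0.0455. With the pair of pools as a block, this call was lost (adjusted p = 0.078). In Ccna2-MO embryos it was 132 ± 31.1 against 421 ± 89.0 in their uninjected embryos (SD, n = 3 each). There limma gave a log2 fold change of -1.56, a standard error of 0.28 and an adjusted p of 0.0345. This call was kept with the block (adjusted p = 0.0495). Because the decrease was known when the genes were listed, these p-values are given as the output of the fit across the array and not as a separate test of the gene. The Oct4-MO change minus the Ccna2-MO change was -0.26 on the log2 scale, with a 95% interval from -1.13 to 0.61 (adjusted p = 0.926), so a difference between the knockdowns was not detected.

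Both calls of Slc1a1 stood near the threshold. Leaving out each of the 12 arrays in turn, the Oct4-MO call passed in 2 of 12 fits (without Ccna2-MO replicate 1 or 2), and the adjusted p in the other 10 lay between 0.0519 and 0.239. The Ccna2-MO call passed in 7 of these 12 fits and was lost without replicate 1 or 3 of either uninjected group or without Ccna2-MO replicate 2, with adjusted p of 0.0592 to 0.13. The log2 fold change itself stayed between -1.96 and -1.62 in Oct4-MO embryos and between -1.74 and -1.37 in Ccna2-MO embryos.

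The other probe sets of Slc1a1 were dimmer and more scattered. On 1460386_a_at the values were 30.8, 24.4 and 40.7 in Oct4-MO pools and 88.8, 35.1 and 95.9 in their uninjected pools, which overlap (log2 fold change -0.83, adjusted p = 0.586 from limma). There the Ccna2-MO pools had 49.2, 23.7 and 46.1 and their uninjected pools 82.3, 250.3 and 137, with no overlap (log2 fold change -1.55, adjusted p = 0.107 from limma). This probe set was lower in the injected pool in all 6 pairs, although neither change passed. The dimmest, 1448299_at, had values from 15.6 to 84.0 that overlapped in both experiments. With the mean of its probe sets in place of the brightest, the log2 fold change of Slc1a1 in Oct4-MO embryos was -0.91 and did not pass (adjusted p = 0.188 from limma).

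Markers of genome activation at the 2-cell stage did not all move alike. The summed level was compared first. For the 3 of 6 that were measured, Tdpoz1, Trim43a and Eif1a, it ran from 3020 to 4060 in Oct4-MO embryos, against 5090 to 5810 in uninjected embryos. In the Ccna2-MO experiment it ran from 3650 to 5020 in injected embryos, against 4950 to 5650 in uninjected embryos. The groups did not overlap in the Oct4-MO experiment and overlapped in the Ccna2-MO experiment. Trim43a was at 1650 ± 377 in Oct4-MO embryos, against 3550 ± 352 in their uninjected embryos (log2 fold change -1.12, adjusted p = 0.0223 from limma). In Ccna2-MO embryos it was at 2870 ± 282, against 3730 ± 156 in theirs, and did not pass (adjusted p = 0.244). Eif1a was at 468 ± 113 in Oct4-MO embryos, against 707 ± 120.0 in their uninjected embryos, and at 330 ± 182 in Ccna2-MO embryos, against 672 ± 173 in theirs, and did not pass in either. Tdpoz1 was at 1320 ± 87.1 in Oct4-MO embryos, against 1280 ± 8.93 in their uninjected embryos, and at 1010 ± 329 in Ccna2-MO embryos, against 944 ± 40.7 in theirs (log2 fold changes 0.04 and 0.05; SD, n = 3 each throughout). The part of this difference in the level of Slc1a1 or of the other transporters was not tested.

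The 5 genes with the pattern most like that of Slc1a1 over the 12 arrays were Defa3, Sirt1, Snap23, Jmy and Becn2, with Pearson correlations of the log2 values of 0.979, 0.973, 0.964, 0.961 and 0.957. They were taken from 11416 other genes among the upper 22468 probe sets. The arrays share their collections and groups, so these correlations only describe likeness. A decrease like that of Slc1a1 follows from this choice of genes. Of the 5, only Defa3 passed, and only in Ccna2-MO embryos (adjusted p = 0.0479 from limma). Sirt1, a nuclear deacetylase, was at 155 ± 30.4 in Oct4-MO embryos, against 517 ± 74.7 in their uninjected embryos, and at 287 ± 121 in Ccna2-MO embryos and 609 ± 85.4 in theirs (SD, n = 3 each). Jmy, a regulator of actin assembly, was at 270 ± 32.3 in Oct4-MO embryos, against 1120 ± 67.2 in their uninjected embryos, and at 568 ± 318 in Ccna2-MO embryos and 1520 ± 202 in theirs (SD, n = 3 each). Sirt1 did not pass in Oct4-MO or Ccna2-MO embryos (adjusted p = 0.0659 and 0.1 from limma). Neither did Jmy (adjusted p = 0.0631 and 0.0555 from limma).

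Slc1a4, the exchanger of alanine, serine, cysteine and threonine known as ASCT1, was lower in Ccna2-MO embryos. On 1456003_a_at its values were 61.0, 35.7 and 114 in the Ccna2-MO pools and 177, 339 and 362 in their uninjected pools. All 3 Ccna2-MO pools lay below all 3 uninjected pools, and the injected pool reached 0.343, 0.105 and 0.316 of its own uninjected pool. The Oct4-MO pools had 283, 163 and 288 and their uninjected pools 292, 193 and 239, which overlap. The Ccna2-MO pools were the lowest of the 4 groups and did not overlap with any other group.

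Slc1a4 averaged 70.3 ± 40.2 in Ccna2-MO embryos, against 293 ± 101 in their uninjected embryos (SD, n = 3 each). On the log2 scale this was -1.88 with a standard error of 0.39, and the adjusted p from limma was 0.0479. The block ended this call (adjusted p = 0.0611). With each array left out in turn the call passed only without Ccna2-MO replicate 3 (adjusted p = 0.0253), and in the other 11 fits the adjusted p was 0.0532 to 0.152. In Oct4-MO embryos the mean was 245 ± 70.3 against 241 ± 49.8 in their uninjected embryos, a log2 fold change of 0.00 with a 95% interval from -0.84 to 0.83 (adjusted p = 0.999 from limma). The difference between the knockdown changes was 1.88 on the log2 scale, with an interval from 0.70 to 3.06, an unadjusted p of 0.00459 and an adjusted p of 0.626 from limma. A difference between the knockdowns was therefore not shown for Slc1a4 over the whole array.

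The dimmer probe sets of Slc1a4 did not pass in either knockdown. On 1423550_at the Ccna2-MO pools had 6.50, 3.91 and 58.1, against 109, 21.5 and 93.4 in their uninjected pools, which overlap. On 1423549_at they had 4.27, 7.82 and 9.82, against 5.97, 22.1 and 91.1, and most arrays were under 16. The Oct4-MO pools had 29.7, 15.3 and 38.6 on 1423550_at, against 112, 19.7 and 47.1 in their uninjected pools.

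The promoter of Slc1a4 held the element TGATGNAA, at which C/EBP and ATF4 dimers bind in genes induced by amino acid shortage. It was searched on both strands, beside the octamer ATGCAAAT of Oct4, in RefSeq promoters of GRCm38.p6 running from 250 bases before to 50 bases after each start. The table of promoters held 14 promoters of 7 of the 10 transporters (Slc1a1, Slc1a4, Slc3a2, Slc6a9, Slc7a6, Slc7a7 and Slc38a2). The octamer was in 0 of the 14, beside 1.74% of all 32851 promoters, and TGATGNAA was in 3 of the 14, of Slc1a4 and Slc7a7, beside 3.97% of all. The Slc7a7 match listed last below lies in overlapping promoters of that gene and is counted with each. By gene, Slc1a4 and Slc7a7 of the 7 held TGATGNAA, beside 4.51% of all 27025 genes with a promoter. The matches read 5′ to 3′ on the minus strand, the strand of both genes, with the element in capitals. Of the transporters that passed in Ccna2-MO embryos, Slc1a4 thus held the element and Slc1a1, also searched, did not, whereas Slc7a7, at the dim end of the array, did.
Slc1a4, chr11:20332699-20332728: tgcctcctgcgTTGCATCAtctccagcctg
Slc7a7, chr14:54418067-54418096: ccgcttgggctTGATGAAAggttcactggg
Slc7a7, chr14:54417927-54417956: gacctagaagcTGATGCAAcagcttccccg
In Slc1a4 the element reads on the strand opposite to the gene, and its capitals begin 4 bases before the annotated start. A match of letters describes a sequence and does not show that a factor binds there.

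Slc1a5, the exchanger of glutamine and other neutral amino acids known as ASCT2, was lower in the injected pool in all 6 pairs, and neither change passed. On 1416629_at its values were 10.9, 13.0 and 15.5 in the Oct4-MO pools, all under 16, and 68.9, 61.5 and 39.5 in their uninjected pools. The Ccna2-MO pools had 134, 20.8 and 71.2 and their uninjected pools 135, 218 and 155. The groups did not overlap in either experiment, but Ccna2-MO replicate 1 lay only just below the lowest uninjected pool. Changes on the log2 scale were -1.30 in Oct4-MO embryos (standard error 0.43, adjusted p = 0.336) and -1.22 in Ccna2-MO embryos (standard error 0.43, adjusted p = 0.215), both from limma. In Ccna2-MO embryos it was -0.67 without Ccna2-MO replicate 2 and -1.68 without replicate 1. With all 6 uninjected arrays as controls the values were -1.97 in Oct4-MO embryos (adjusted p = 0.0692) and -0.54 in Ccna2-MO embryos (adjusted p = 0.664).

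The uninjected embryos of the experiments also differed in Slc1a5, without passing. They were at 56.6 ± 15.3 in the Oct4-MO experiment and 169 ± 43.1 in the Ccna2-MO experiment (SD, n = 3 each), with no overlap and a log2 fold change of -1.35 (adjusted p = 0.253 from limma). In order of the mean, the Oct4-MO pools were lowest, then their uninjected pools, then the Ccna2-MO pools and then theirs. The middle groups overlapped. On the dimmer probe set 1440379_at the Oct4-MO pools had 19.3, 6.31 and 47.9, against 101, 23.4 and 42.3 in their uninjected pools, and the Ccna2-MO pools had 14.1, 20.0 and 10.2, against 25.9, 57.4 and 63.9 in theirs. There the groups overlapped in the Oct4-MO experiment and did not in the Ccna2-MO experiment.

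**Figure D2:**
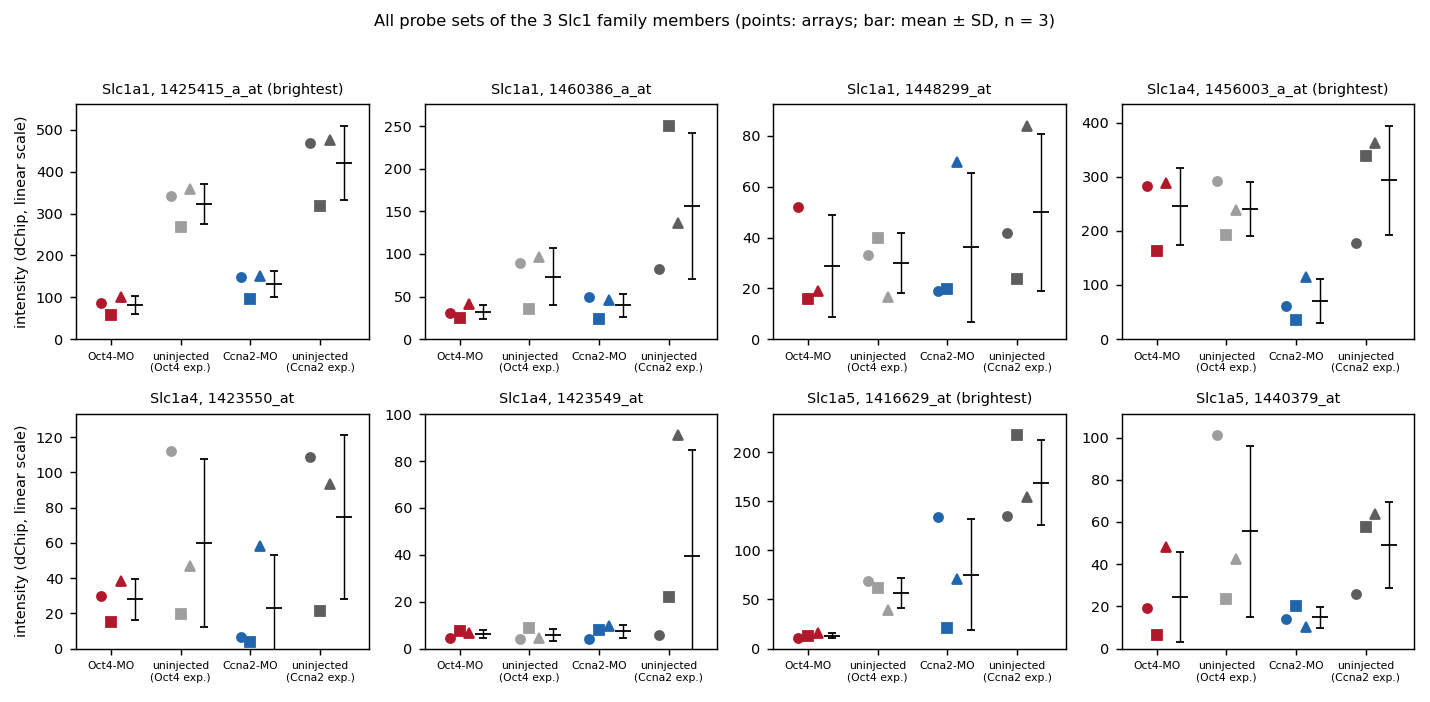
Intensity (dChip, linear scale, each axis from 0) of all 8 probe sets of Slc1a1, Slc1a4 and Slc1a5 on every array, with Oct4-MO, its uninjected embryos, Ccna2-MO and its uninjected embryos from left to right; points are arrays and the bar is the mean ± SD (n = 3). The Ccna2-MO pools reach 61.0, 35.7 and 114 on the brightest probe set of Slc1a4, below all other groups, whereas the dimmer probe sets scatter more.

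Slc3a2, the heavy chain of Slc7a5, Slc7a6 and Slc7a7 among other exchangers, showed no change past the threshold in either knockdown. On 1425364_a_at its values were 203, 249 and 239 in the Oct4-MO pools and 285, 255 and 167 in their uninjected pools. The Ccna2-MO pools had 526, 331 and 549 and their uninjected pools 372, 334 and 474. The groups overlapped in both experiments. The change on the log2 scale was -0.01 in Oct4-MO embryos, with a 95% interval from -0.59 to 0.58 (adjusted p = 0.998), and 0.22 in Ccna2-MO embryos, with an interval from -0.36 to 0.81 (adjusted p = 0.775), both from limma. All 6 arrays of the Oct4-MO experiment lay below all 6 arrays of the Ccna2-MO experiment. The uninjected pools of the experiments had a log2 fold change of -0.72 (unadjusted p = 0.0201, adjusted p = 0.338 from limma), which did not pass.

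Slc7a5, the light chain LAT1 that takes up leucine and other large neutral amino acids, had lower values in all 3 Oct4-MO pools without passing. On 1418326_at they were 171, 192 and 155 in the Oct4-MO pools and 317, 455 and 323 in their uninjected pools, with no overlap. Each Oct4-MO pool had 0.538, 0.422 and 0.479 of the level of its own uninjected pool. Its log2 fold change was -1.001 (standard error 0.27, 95% interval from -1.59 to -0.42, adjusted p = 0.219 from limma). In the Ccna2-MO experiment the injected pools had 222, 219 and 367 and the uninjected pools 269, 419 and 357, which overlap. That log2 fold change was -0.37 (adjusted p = 0.593 from limma), and the difference between the knockdown changes was -0.63 (adjusted p = 0.801).

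The other light chains among the listed transporters, Slc7a6 and Slc7a7, were near the floor of the array. Slc7a6, which exchanges cationic for neutral amino acids, was under 16 on 10 of 12 arrays and reached 56.5 on 1 uninjected array of the Ccna2-MO experiment. Slc7a7, with the same transport activity, was under 16 on 11 of 12 arrays and reached 27.1 in 1 Oct4-MO pool. These levels give no order among the groups.

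Slc6a9 was the only transporter with higher values in all Oct4-MO pools and no overlap between groups. On 1417636_at its values were 814, 792 and 814 in the Oct4-MO pools and 290.0, 515 and 235 in their uninjected pools, so that the injected pools hardly varied and the uninjected pools did. The injected pool had 2.81, 1.54 and 3.47 times the level of its own uninjected pool. The log2 fold change was 1.26 (standard error 0.31, 95% interval from 0.59 to 1.92), with an adjusted p of 0.164 from limma, and did not pass. In the Ccna2-MO experiment the injected pools had 927, 1359 and 674 and the uninjected pools 595, 993 and 707, which overlap. The log2 fold change there was 0.34 (adjusted p = 0.684 from limma), and the difference between the knockdown changes was 0.92 (adjusted p = 0.753). With all 6 uninjected arrays as controls the change of Slc6a9 was 0.68 in Oct4-MO embryos (adjusted p = 0.422) and 0.91 in Ccna2-MO embryos (adjusted p = 0.273), and with the mean over its probe sets the difference was 0.20.

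The uninjected groups of the experiments were also compared for Slc6a9. They averaged 347 ± 149 in the Oct4-MO experiment and 765 ± 205 in the Ccna2-MO experiment (SD, n = 3 each), with no overlap and a log2 fold change of -1.15 (unadjusted p = 0.00264, adjusted p = 0.186 from limma). The Oct4-MO pools, at 807 ± 13.2, lay within the range of the uninjected pools of the Ccna2-MO experiment. On the dimmer probe set 1431812_a_at the Oct4-MO pools had 324, 247 and 298 and their uninjected pools 280, 197 and 168, which overlap. The log2 fold change was 0.43 (adjusted p = 0.808 from limma). On that probe set the Ccna2-MO pools had 242, 339 and 315 and their uninjected pools 258, 77.9 and 152, which overlap as well. There the log2 fold change was larger, at 0.94 (unadjusted p = 0.0205, adjusted p = 0.25 from limma), and did not pass either.

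Slc38a2, the system A transporter SNAT2, had on 1429593_at 62.2, 102 and 126 in the Oct4-MO pools and 87.2, 74.0 and 109 in their uninjected pools. The Ccna2-MO pools had 68.6, 102 and 47.1 and their uninjected pools 46.2, 43.8 and 73.8. The injected and uninjected pools overlapped in both experiments. It changed by 0.06 on the log2 scale in Oct4-MO embryos (95% interval from -0.66 to 0.77, adjusted p = 0.984) and 0.31 in Ccna2-MO embryos (interval from -0.41 to 1.02, adjusted p = 0.743), both from limma. Slc38a1, the related transporter SNAT1, had values from 15.7 to 30.1 and overlapped in every comparison.

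**Figure D3:**
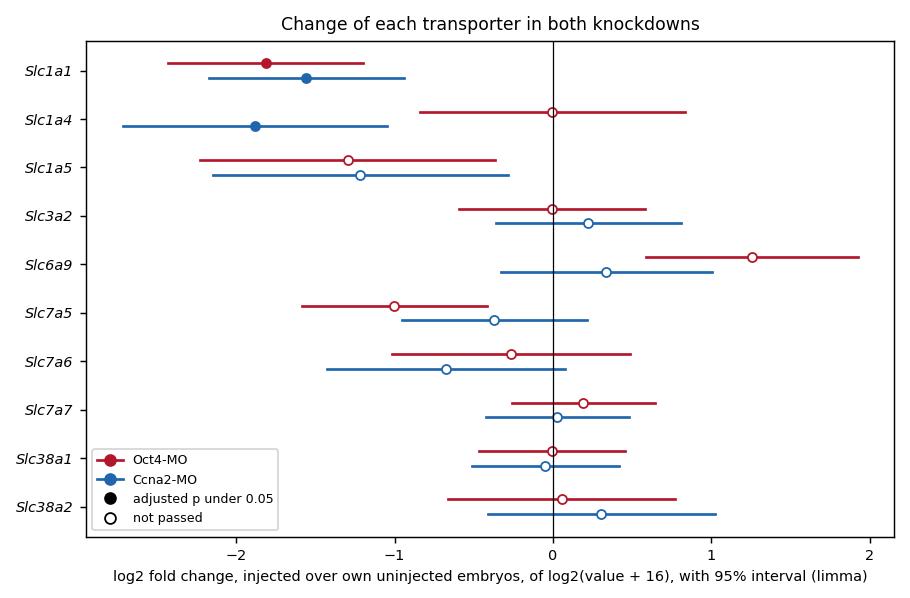
Log2 fold change of log2(value + 16) of each transporter with its 95% interval from limma, for Oct4-MO embryos (upper line of each gene) and Ccna2-MO embryos (lower line) over their own uninjected embryos; filled points have an adjusted p under 0.05. The filled points are Slc1a1 at -1.81 and -1.56, and Slc1a4 at -1.88 in Ccna2-MO embryos.

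Of the 11 dimmer probe sets of the transporters, 6 were under 16 on at least 10 arrays. None of the 11 passed after adjustment in either knockdown with limma, where 0.0734% of all probe sets passed in Oct4-MO embryos and 0.748% in Ccna2-MO embryos. At an unadjusted p under 0.05 there were 0 in Oct4-MO embryos, against 9.26% of all probe sets, and 5 in Ccna2-MO embryos, against 14.1%: 1 of Slc1a1, 2 of Slc1a4, 1 of Slc1a5 and 1 of Slc6a9, the last of them higher. Between the uninjected groups of the experiments 0 transporters passed, where 0.116% of all genes did, and 3 were lower in the Oct4-MO experiment at an unadjusted p under 0.05 (Slc1a5, Slc3a2 and Slc6a9), against 5.67% of all genes. For the difference between the knockdown changes 0 transporters and 0% of all genes passed with limma, and Slc1a4 was the 1 transporter higher at an unadjusted p under 0.05, against 3.19% of all genes.

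Other amino acid transporters did not pass in either knockdown. Of 42 listed, 40 were measured. Their median log2 fold change was 0.04 in Oct4-MO embryos and 0.03 in Ccna2-MO embryos, beside 0.01 and 0.03 for all genes. At an unadjusted p under 0.05, 1 was higher and 3 were lower in Oct4-MO embryos, and 3 were higher and 2 were lower in Ccna2-MO embryos. The shares of all genes were 4.66% higher and 5.96% lower in Oct4-MO embryos, and 8.22% and 8.5% in Ccna2-MO embryos. The 2 with the smallest p in Oct4-MO embryos were Slc66a1 and Slc3a1. Slc66a1, the lysosomal exporter of cationic amino acids, had 13.8, 7.56 and 6.29 in the Oct4-MO pools and 292, 157 and 55.5 in their uninjected pools, with no overlap (log2 fold change -2.64, adjusted p = 0.135 from limma, and 0.0257 with all 6 uninjected arrays as controls). Slc3a1, the heavy chain of the cystine transporter, had 80.7, 88.6 and 104 in the Oct4-MO pools and 32.4, 27.3 and 49.7 in their uninjected pools, also with no overlap (log2 fold change 1.04, adjusted p = 0.289 from limma). The 2 with the smallest p in Ccna2-MO embryos were Slc36a1, a lysosomal carrier of small amino acids (log2 fold change 1.28, adjusted p = 0.186), and Slc7a11, the cystine and glutamate exchanger (log2 fold change 0.82, adjusted p = 0.252), which did not pass either. Slc7a11 went the other way in Oct4-MO pools, with 138, 120 and 95.6 against 166, 288 and 193 in their uninjected pools. These did not overlap, and the change did not pass (adjusted p = 0.474 from limma). Its difference between the knockdown changes was -1.59 (unadjusted p = 0.00339, adjusted p = 0.62 from limma).

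Transport of organic osmolytes and control of cell volume were represented by 11 of 12 listed genes, none of which passed in either knockdown with limma. Their median log2 fold change was 0.10 in Oct4-MO embryos and -0.01 in Ccna2-MO embryos, beside 0.01 and 0.03 for all genes. At an unadjusted p under 0.05, 1 was higher and 0 lower in Oct4-MO embryos, and 1 was higher and 1 lower in Ccna2-MO embryos. The shares of all genes were 4.66% higher and 5.96% lower in Oct4-MO embryos, and 8.22% and 8.5% in Ccna2-MO embryos. Slc5a3, the carrier of the osmolyte myo-inositol, had 55.1, 17.8 and 90.7 in the Ccna2-MO pools and 720.0, 232 and 349 in their uninjected pools. The groups did not overlap, and the log2 fold change was -2.67 (standard error 0.60, adjusted p = 0.0622 from limma). It passed under 6 of 24 alternatives, such as with all 6 uninjected arrays as controls (adjusted p = 0.0247). In Oct4-MO embryos it had 484, 97.1 and 128 against 565, 292 and 570 in their uninjected embryos, which overlap (log2 fold change -1.23, adjusted p = 0.57 from limma). The other genes named by the smallest p were Lrrc8e in Oct4-MO embryos (log2 fold change 0.81, adjusted p = 0.43) and Lrrc8c in Ccna2-MO embryos (0.46, adjusted p = 0.354), both subunits of the volume-regulated anion channel. Lrrc8c did not exceed 19.4 on any array, which is too dim for a direction to be read.

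The growth-regulating kinase complex mTORC1, its regulators and amino acid sensing for it were represented by 30 of 35 listed genes. None passed in either knockdown with limma. Their median log2 fold change was -0.15 in Oct4-MO embryos and -0.01 in Ccna2-MO embryos, beside 0.01 and 0.03 for all genes. At an unadjusted p under 0.05, 0 were higher and 2 lower in Oct4-MO embryos, and 2 were higher and 1 lower in Ccna2-MO embryos. Of all genes, 4.66% were higher and 5.96% lower in Oct4-MO embryos, and 8.22% and 8.5% in Ccna2-MO embryos. The smallest p in Oct4-MO embryos belonged to Fnip2, a partner of folliculin, with 232, 125 and 216 in the Oct4-MO pools and 651, 585 and 451 in their uninjected pools (log2 fold change -1.51, adjusted p = 0.29 from limma). Sesn2, a leucine sensor, followed (-0.41, adjusted p = 0.522). In Ccna2-MO embryos the smallest p belonged to Lamtor1, the anchor of the Ragulator complex on the lysosome (-0.40, adjusted p = 0.269), and Wdr24, a subunit of GATOR2 (1.20, adjusted p = 0.349).

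**Figure D4:**
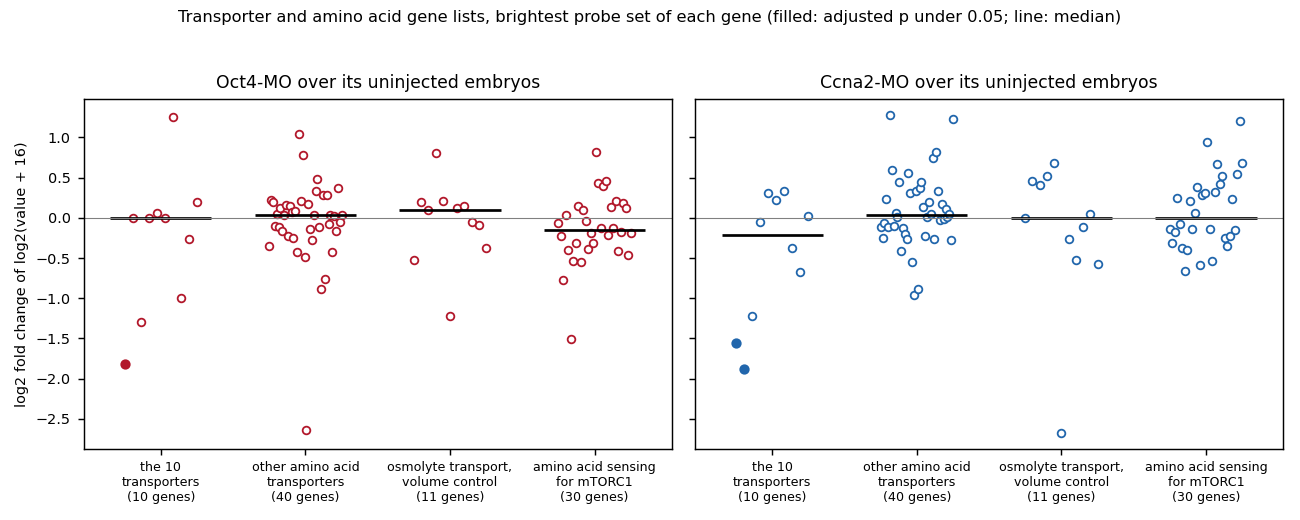
Log2 fold change of log2(value + 16) of each gene on its brightest probe set for the 10 transporters, 40 other amino acid transporters, 11 genes of osmolyte transport and volume control and 30 genes of mTORC1, its regulators and amino acid sensing, in Oct4-MO embryos (left) and Ccna2-MO embryos (right). Each point is a gene, the line is the list's median, and filled points have an adjusted p under 0.05. The only filled points are Slc1a1 in both panels and Slc1a4 in the right panel.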

How the data were processed

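RNA of 12 pools of mouse embryos was hybridised to Affymetrix Mouse Genome 430 2.0 arrays. The authors deposited 1 intensity per probe set, a linear value that they had normalized with dChip. The dChip version and model options were not given in the sources used here. Of 45001 probe sets, 64 controls were left out. Names came from the platform annotation, which gives 1 gene symbol for 34849 probe sets, several for 928, left unnamed here, and none for 9160.

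Values were analysed as log2(value + 16) with limma 3.58.1 in R 4.3.3. A linear model of 4 groups took all 12 arrays together, and its variance prior followed intensity. A probe set passed at an adjusted p under 0.05 (Benjamini-Hochberg, 44937 probe sets), and intervals are 95% intervals of that fit. The script was tested on simulated arrays with known changes. P-values cover the spread between pools only, since nothing states whether collections fell on separate days, and 3 arrays per group limit the precision. The transporters, gene lists and rules were chosen with earlier results of these data known. From each list of transport or sensing genes, those that passed would be named (at most 4), and where none passed, as here, the 2 with the smallest p. Marker genes are named as a check of the samples; those given with values were picked after their values were seen.

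By the labels, injected and uninjected pools of a number derive from 1 collection, which makes the numbers pairs. Within pairs, deviations from group means correlated at 0.105, 0.0614 and -0.00013 in the Oct4-MO experiment and at -0.015, 0.111 and 0.15 for Ccna2-MO. Alternatives were a block for the pair, the 6 uninjected arrays pooled as controls, a fit of the 6 arrays compared, a prior without trend, 1 or 64 in place of 16, the upper 22468 probe sets alone, quantile normalization, median centring, an unpaired t-test per probe set, array weights, the mean over probe sets of a gene, and each array left out. The t-test stands in for part of the study's ranking, which combined fold change with an unpaired t-statistic and a permutation-based false discovery rate and was not run here.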

Additional observations from a re-analysis of the deposited data

How the results depend on the processing

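The 40 log2 fold changes followed, of the transporters and of the named genes of the lists, had 939 values under alternatives. Of these 859 kept direction and side of the threshold, 57 were no longer past it, 9 were newly past it (of Slc66a1, Slc5a3 and Zar1) and 14 changed sign. Trim43a in Oct4-MO embryos passed in 7 and Zar1 in Ccna2-MO embryos in 6 of the 12 fits with 1 array left out. The 1 transporter that passed in Oct4-MO embryos became 0 with the replicate block, with only the 6 arrays of the comparison, with 64 added before log2, with an unpaired t-test and with the mean over its probe sets, and 0 to 1 with 1 array left out. The 2 that passed in Ccna2-MO embryos became 1 with the replicate block, without the intensity trend, with 64 added and with the mean of the probe sets, 0 with only the 6 arrays, with array weights and with an unpaired t-test, and 0 to 2 with 1 array left out. The cause was not tested. The counts for the difference between the knockdowns and between the uninjected groups stayed at 0 under every alternative run; no paired analysis was possible for the uninjected groups because they share no collection of embryos. The block changed no other call of a named transporter.

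Changes of sign were seen for log2 fold changes near 0. In Oct4-MO embryos Slc1a4 was at 0.00 with 64 added, 0.041 with quantile normalization, 0.052 with median centring, and -0.15 to 0.24 with 1 array left out. Slc3a2 there was at 0.043 with quantile normalization, 0.0501 with median centring, 0.043 with array weights, and -0.22 to 0.14 with 1 array left out, and Slc38a2 at -0.13 to 0.30 with 1 array left out. The difference between the knockdown changes of Slc1a1 was 0.25 with the mean of its probe sets. Over all probe sets the count that passed was 33 in Oct4-MO embryos (0 to 452 over the other alternatives, 0 to 87 with 1 array left out) and 336 in Ccna2-MO embryos (0 to 711 and 17 to 652). It was 1 for the difference between the knockdowns (0 to 1 and 0 to 3) and 41 between the uninjected groups (0 to 221 and 2 to 48). The paper, with its own ranking, reports a larger gene set for Oct4 than for cyclin A2 knockdown. The main fit here had the reverse order, which did not hold under every alternative. The counts in Oct4-MO and Ccna2-MO embryos were 452 and 437 with all 6 uninjected arrays as controls, and 257 and 87 with array weights. With 1 array left out, values in Ccna2-MO embryos that had not passed ran from 0.08 to 0.58 for Slc6a9 and from -0.60 to -0.23 for Slc7a5. With 64 added before log2, Slc1a5 in Oct4-MO embryos was at -0.64. Slc7a6, Slc7a7 and Slc38a1 were too dim for a direction to be read.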
